A study of Rattus norvegicus with 10 samples.

Results

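Transcripts of 10 S100 and annexin genes were followed in the rat hippocampus 3 months after status epilepticus. The 10 were S100a1, S100a4, S100a6, S100a10, S100a11, S100b, Anxa1, Anxa2, Anxa3 and Anxa5. They were taken by rat gene symbol from a matrix of 32041 transcript rows, and each symbol had a single row. The study named S100a6 as higher in this model and in its other epilepsy models, so in part from these same animals. The other 9 were taken as its relatives. After traumatic brain injury, in other rats, the study also listed S100a4 and S100a11 as higher. The study's list of genes higher in this model also holds Anxa2. Values of S100a6 and Anxa2 here are therefore not independent evidence of their direction. The same holds for genes of the lists used below that the study listed, such as Plat, Pla2g4a and Necab3. All 10 passed the filter on low counts, as did 22447 rows in all.

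RNA came from male Sprague-Dawley rats, an outbred strain, and from a piece of the left hippocampus that held CA3 and the dentate gyrus. In 5 rats (numbers 6 to 10, stimulated) the left lateral amygdala received trains of pulses (400 µA, 60 Hz) through an implanted electrode for 30 min to bring on status epilepticus, and diazepam ended it. In 5 age-matched rats (numbers 1 to 5, sham) the electrodes were implanted but no current was given. All 10 rats therefore carried electrodes, and only the stimulated rats are described as having had diazepam. According to the study, every stimulated rat enrolled later had spontaneous seizures. The study names their number, and the time from the last seizure to tissue collection, as possible confounders. The labels give no seizure record per rat, and the part of seizures in the levels was not tested. Each animal was processed individually. The study's methods count 1 stimulated animal fewer for this assay and do not name it, so every labelled rat was used. Aligned counts per rat ranged from 13552309 to 24086059. The share of unaligned reads was 41.4%, 42.93% and 45.14% in stimulated rats 8, 9 and 10 against 32.01% to 37.09% in the other 7 rats, and its part in the differences was not tested. Among genes of dentate and CA3 neurons, C1ql2 lay between 44.8 CPM (read counts scaled for library size with TMM factors, the unit used throughout) in stimulated rat 7 and 207 CPM in stimulated rat 9, and Prox1 and Grik4 were counted in every rat. In bulk tissue, a change in the number of cells of a type and a change in RNA per cell cannot be told apart.

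S100 proteins are small calcium sensors built from paired EF-hand motifs. On binding calcium they expose a surface that grips target proteins, and several of them grip annexins. Annexins bind acidic membrane lipids in the presence of calcium and serve in membrane repair, trafficking and the resolution of inflammation. In the brain S100b is made chiefly by astrocytes and some oligodendrocytes, whereas S100a4, S100a6, S100a10 and the annexins A1 and A2 are known from reactive glia, blood vessels and the meninges.

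Several of these genes lie side by side. In the GRCr8 assembly S100a4 and S100a6 are separated by S100a5 alone, S100a1 is followed by S100a13, and S100a10 and S100a11 lie apart from them on the same chromosome with a pseudogene between them. The S100b gene overlaps Dip2a. Use of strand in counting was not stated, so reads of S100b and Dip2a may not be fully separated. Promoter sequences of 8 of the 10 genes (250 bases before to 50 after the start) were matched in RefSeq for GRCr8, and those of S100a1 and S100a10 were not used here. The 4 matched genes whose levels were highest in the same pair of rats are shown with S100b, whose level was not. They are S100a4 at chr2:178388279-178388578 (plus strand), S100a6 at chr2:178398287-178398586 (plus strand), Anxa1 at chr1:227303683-227303982 (minus strand), Anxa2 at chr8:78986002-78986301 (plus strand) and S100b at chr20:12381032-12381331 (minus strand). Capitals mark matches on either strand to the AP-1 motif TGANTCA, bound by Fos and Jun dimers, or to the TATA motif TATAAA.
S100a4: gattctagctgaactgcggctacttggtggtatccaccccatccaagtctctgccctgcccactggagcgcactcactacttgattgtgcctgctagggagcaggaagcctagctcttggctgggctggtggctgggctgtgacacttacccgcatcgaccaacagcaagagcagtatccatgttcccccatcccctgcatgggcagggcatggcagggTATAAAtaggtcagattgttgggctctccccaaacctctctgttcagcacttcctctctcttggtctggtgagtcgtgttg
S100a6: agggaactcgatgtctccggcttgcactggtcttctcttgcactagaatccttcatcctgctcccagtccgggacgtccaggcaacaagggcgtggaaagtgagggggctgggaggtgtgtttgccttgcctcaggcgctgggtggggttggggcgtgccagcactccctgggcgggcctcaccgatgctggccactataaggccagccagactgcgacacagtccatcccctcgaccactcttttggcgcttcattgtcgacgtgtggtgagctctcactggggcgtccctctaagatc
Anxa1: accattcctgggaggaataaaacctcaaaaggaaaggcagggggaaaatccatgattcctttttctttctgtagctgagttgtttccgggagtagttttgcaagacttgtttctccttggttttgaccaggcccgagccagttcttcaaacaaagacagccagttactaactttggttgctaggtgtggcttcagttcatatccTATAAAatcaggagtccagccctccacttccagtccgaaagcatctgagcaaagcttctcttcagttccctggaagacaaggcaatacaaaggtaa
Anxa2: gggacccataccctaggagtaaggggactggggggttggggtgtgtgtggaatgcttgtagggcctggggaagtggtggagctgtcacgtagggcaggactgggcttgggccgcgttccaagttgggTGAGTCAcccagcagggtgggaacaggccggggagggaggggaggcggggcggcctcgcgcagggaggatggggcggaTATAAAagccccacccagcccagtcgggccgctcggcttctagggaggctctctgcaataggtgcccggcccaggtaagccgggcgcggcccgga
S100b: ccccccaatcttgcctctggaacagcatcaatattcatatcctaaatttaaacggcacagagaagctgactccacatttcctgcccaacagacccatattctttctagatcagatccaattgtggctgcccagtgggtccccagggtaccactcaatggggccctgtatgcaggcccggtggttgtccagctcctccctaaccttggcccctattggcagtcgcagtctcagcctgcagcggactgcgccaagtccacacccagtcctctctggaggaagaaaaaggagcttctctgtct
A match to TGANTCA was found in 1 of the 8 promoters, that of Anxa2, and in 7.33% of 27457 promoters of this length. TATAAA was found in 3 of 8, those of S100a4, Anxa1 and Anxa2, and in 14.3% of all promoters. Neither TGACGTCA, the cAMP response element, nor TTCNNNGAA, the STAT motif, was found in the 8 promoters, against 1.91% and 8.68% of all promoters. The motifs do not overlap one another in these sequences, and a match is a description of letters, not of binding.

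It was asked whether the relatives of S100a6 followed it in stimulated rats. In edgeR's quasi-likelihood test 0 of the 10 genes had an adjusted p-value under 0.05, as did 0% of all 22447 tested rows. Limma-voom also gave 0 of 10, whereas edgeR's likelihood ratio test and DESeq2 each gave 1 of 10, Anxa2, among 119 and 33 rows in all. The study's own edgeR fit, described with 1 stimulated rat fewer, gave adjusted p-values under 0.05 for S100a6 and Anxa2. In the quasi-likelihood test used here, 6 of 10 genes had an unadjusted p-value under 0.05 with a higher level in stimulated rats, against 6.7% of all rows. With a lower level it was 0 of 10, against 3.16%. The 6 were S100a4, S100a6, S100a10, Anxa1, Anxa2 and Anxa5. Log2 fold changes of stimulated over sham rats were above 0 for 9 of 10 genes (52.2% of all rows) and above 1 for 4 of 10 (2.36%), with a median of 0.73 for the 10 genes and 0.01 for all rows. In 0 of 10 genes did all stimulated rats exceed all sham rats, a pattern seen in 0.695% of rows.

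The difference between the groups was unevenly carried. Stimulated rats 7, 9 and 10 were each above all sham rats for 7 of the 10 genes, stimulated rat 8 for 3 and stimulated rat 6 for 0. Over all tested rows the same held for 28.8% in rat 7, 25.6% in rat 9, 25.6% in rat 10, 17.7% in rat 8 and 16% in rat 6. Rats 7 and 10 were the 2 highest of the 10 rats for S100a4, S100a6, S100a10, Anxa1 and Anxa2, which is 5 of 10 genes, where this held for 7.48% of all rows. This pair of rats was singled out after the values were seen.

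**Figure D1:**
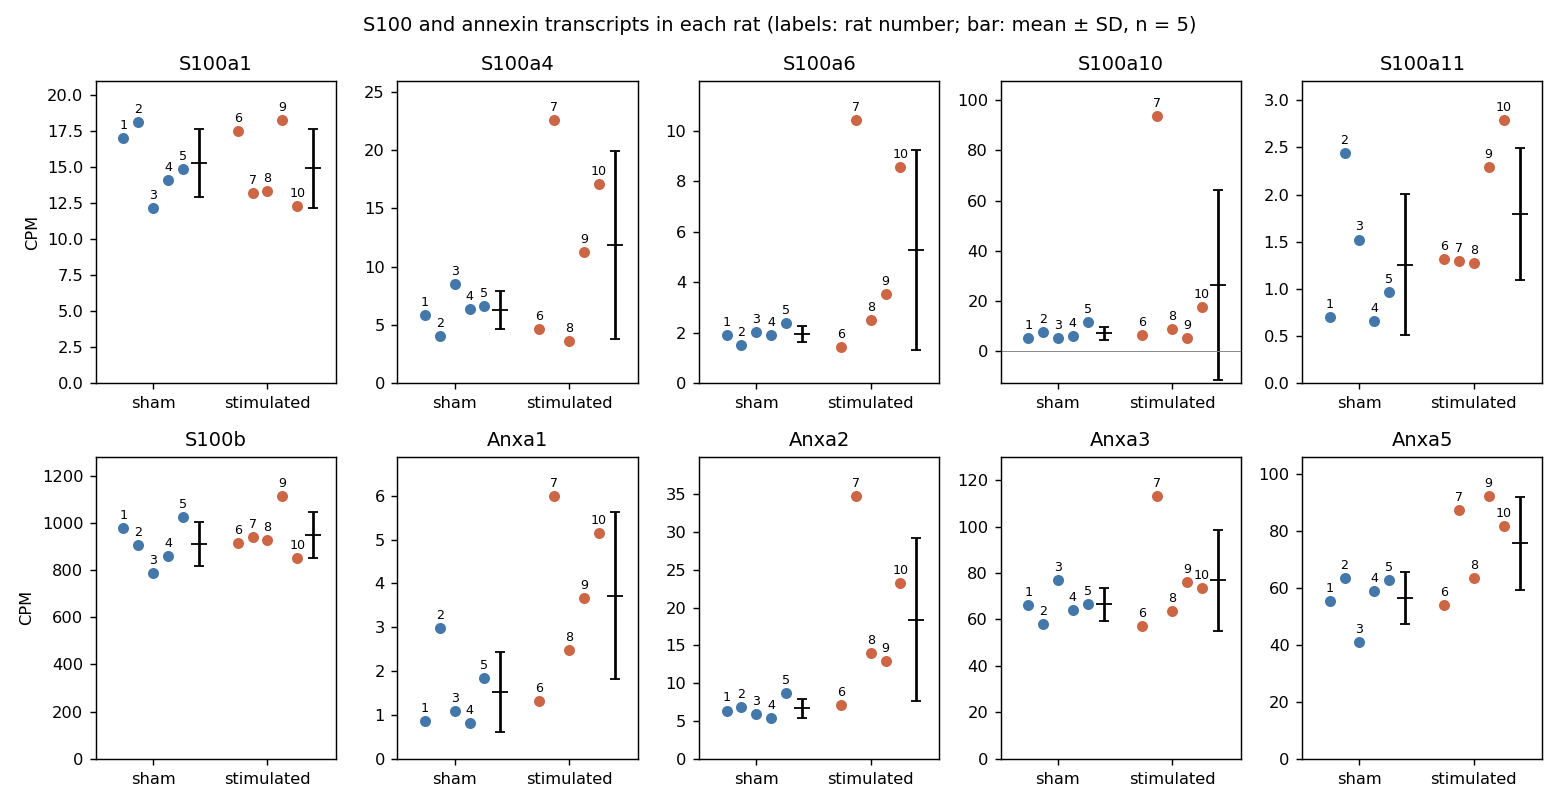
CPM (vertical axis, a separate scale per panel) of each gene in 5 sham and 5 stimulated rats, with rat numbers beside the points and the mean ± SD (n = 5) to the right of each group. Stimulated rat 7 is the highest of all rats in 6 of the 10 panels, and stimulated rat 6 lies within or below the sham range in all of them.

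S100a6, or calcyclin, is an S100 protein of proliferating and reactive cells. It was counted in sham rats 1 to 5 at 1.92, 1.53, 2.01, 1.90 and 2.39 CPM and in stimulated rats 6 to 10 at 1.45, 10.4, 2.49, 3.52 and 8.57 CPM. Rats 7 and 10 stood well above the sham range, rat 9 somewhat above it, rat 8 barely above it and rat 6 below it. The counts behind these values were low, and the exact Poisson interval (95%, counting error only) was 1.77 to 3.40 CPM in rat 8, which includes the highest sham value, and 9.08 to 11.9 CPM in rat 7, which does not. The sham mean was 1.95 ± 0.308 CPM and the stimulated mean 5.28 ± 3.96 CPM (SD, n = 5 per group), and the log2 fold change was 1.43 (SE 0.444, edgeR adjusted p = 0.396).

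S100a4, known from motile and mesenchymal cells and from white matter astrocytes, is a near neighbour of S100a6 in the genome. Sham rats had 5.88, 4.05, 8.49, 6.33 and 6.62 CPM, and stimulated rats 4.66, 22.5, 3.64, 11.3 and 17.1 CPM. The same 3 rats, 7, 9 and 10, exceeded every sham rat, while rats 6 and 8 lay at the low end of the sham range or below it. The log2 fold change was 0.91 (SE 0.411, edgeR adjusted p = 0.489). It was 0.53 without rat 7 and 0.04 (SE 0.32) without rats 7 and 10, and the unadjusted p-value stayed under 0.05 in 3 of the 10 fits that left out a single rat.

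S100a10 (p11) is the S100 protein that joins annexin A2 in a heterotetramer and that carries several receptors and channels to the cell surface. Levels in sham rats were 5.41, 7.79, 5.39, 5.83 and 11.4 CPM. Stimulated rats had 6.43, 93.6, 8.68, 5.25 and 17.5 CPM. A single library, that of rat 7, held 2016 counts and lay 5.34 times above the next rat, rat 10 was above the sham range, and rats 6, 8 and 9 were not. The log2 fold change of 1.87 (SE 0.687, edgeR adjusted p = 0.418) became 0.38 without rat 7 and -0.10 (SE 0.265) without rats 7 and 10. These were the 2 highest rats for this gene, so leaving them out had to lower the fold change. The value of -0.10 has no clear sign beside its SE.

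S100a11, a partner of annexin A1 at membranes, was counted at 12 to 54 reads per rat. Sham rats had 0.698, 2.44, 1.52, 0.661 and 0.964 CPM, and stimulated rats 1.31, 1.30, 1.28, 2.30 and 2.79 CPM. Only rat 10 exceeded all sham rats, and its exact Poisson interval of 2.09 to 3.64 CPM included the level of sham rat 2. The log2 fold change was 0.55 (SE 0.387, edgeR adjusted p = 0.657). It moved with single rats, to 0.90 (unadjusted p = 0.0277) without sham rat 2 and to 0.34 without stimulated rat 10. In this gene rat 7, the highest for S100a6 and S100a10, lay in the middle of the sham range.

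S100a1, which regulates calcium release channels and is known best from muscle, had 17.0, 18.2, 12.2, 14.1 and 14.9 CPM across sham rats and 17.5, 13.2, 13.3, 18.3 and 12.3 CPM across stimulated ones. The ranges were nearly the same, and the log2 fold change was -0.03 (SE 0.15, edgeR adjusted p = 0.964). S100b, the glial S100 protein, had 976, 905, 787, 861 and 1025 CPM across sham rats and 916, 938, 929, 1113 and 849.7 CPM across stimulated ones. Rat 9 was above the sham range and the other stimulated rats lay inside it, with a log2 fold change of 0.06 (SE 0.0912, edgeR adjusted p = 0.868). Spread was small in both groups, at 10.3% of the mean in sham and 10.3% in stimulated rats (SD), whereas the spread of S100a6 was 15.8% and 74.8%.

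Among the annexins, Anxa2 had the lowest p-value. Annexin A2 binds plasminogen and its activator at the cell surface and links membranes to actin. Sham rats had 6.40, 6.87, 5.93, 5.42 and 8.72 CPM, and stimulated rats had 7.10, 34.7, 13.98, 13.0 and 23.3 CPM. Rats 7, 8, 9 and 10 were above all sham rats and rat 6 was inside their range. The log2 fold change was 1.46 (SE 0.334, unadjusted p = 0.000656, edgeR adjusted p = 0.376). Without rats 7 and 10 it was 0.75 (SE 0.223, unadjusted p = 0.0049, edgeR adjusted p = 0.746). In that fit Anxa2 was the 1 gene of the 10 that kept an unadjusted p-value under 0.05. So did 1425 rows in all, and 1 of 10 genes did not stand out from that share. The adjusted p-value of Anxa2 depended on the test, at 0.0127 in edgeR's likelihood ratio test and 0.0124 in DESeq2.

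Anxa2 and S100a10 encode the subunits of one complex, so their reads were compared within each library. Sham rats had 0.762 to 1.18 Anxa2 reads per S100a10 read. Stimulated rats 6 to 10 had 1.11, 0.371, 1.61, 2.47 and 1.33. The ratio was thus below the sham range in rat 7, inside it in rat 6 and above it in rats 8, 9 and 10.

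Anxa1, a mediator of glucocorticoid action that limits leukocyte entry, was a gene of few reads, with 15 to 129 counts per rat. Sham rats had 0.873, 2.98, 1.09, 0.827 and 1.84 CPM and stimulated rats 1.31, 5.99, 2.49, 3.67 and 5.16 CPM. Rats 7, 9 and 10 exceeded all sham rats, and sham rat 2 exceeded rats 6 and 8. The group means were 1.52 ± 0.91 and 3.73 ± 1.91 CPM (SD, n = 5 per group), and the log2 fold change was 1.32 (SE 0.429, edgeR adjusted p = 0.399).

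Anxa5, which coats exposed phosphatidylserine, had 55.6, 63.4, 41.1, 59.0 and 62.9 CPM across sham rats and 54.0, 87.2, 63.5, 92.3 and 81.7 CPM across stimulated ones. Rats 7, 9 and 10 were clearly above the sham range, rat 8 stood beside its upper end and rat 6 lay within it. The difference was small beside that of Anxa2, with a log2 fold change of 0.43 (SE 0.156, edgeR adjusted p = 0.418), and it was 0.30 (SE 0.168) without rats 7 and 10. Anxa3, an annexin of phagocytes and endothelium, had 66.3, 58.1, 77.2, 64.0 and 66.8 CPM across sham rats and 57.4, 113, 63.7, 76.1 and 73.7 CPM across stimulated ones. Only rat 7 was above the sham range, and the log2 fold change of 0.21 (SE 0.157, edgeR adjusted p = 0.681) was 0.01 without it.

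**Figure D2:**
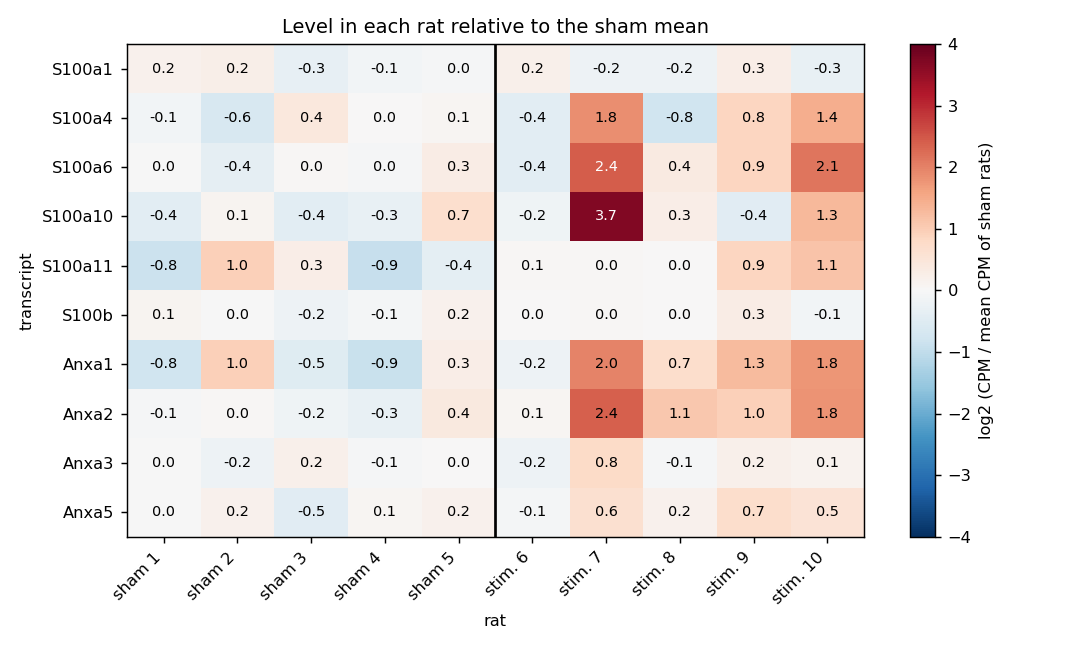
Log2 ratio of the CPM in each rat to the mean CPM of the 5 sham rats, for the 10 genes (rows) in sham rats 1 to 5 and stimulated rats 6 to 10 (columns), with red above and blue below the sham mean. The deepest red cells of S100a4, S100a6, Anxa1 and Anxa2 are those of rats 7 and 10, S100a10 is deepest in rat 7, and the rows of S100a1 and S100b stay pale.

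**Figure D3:**
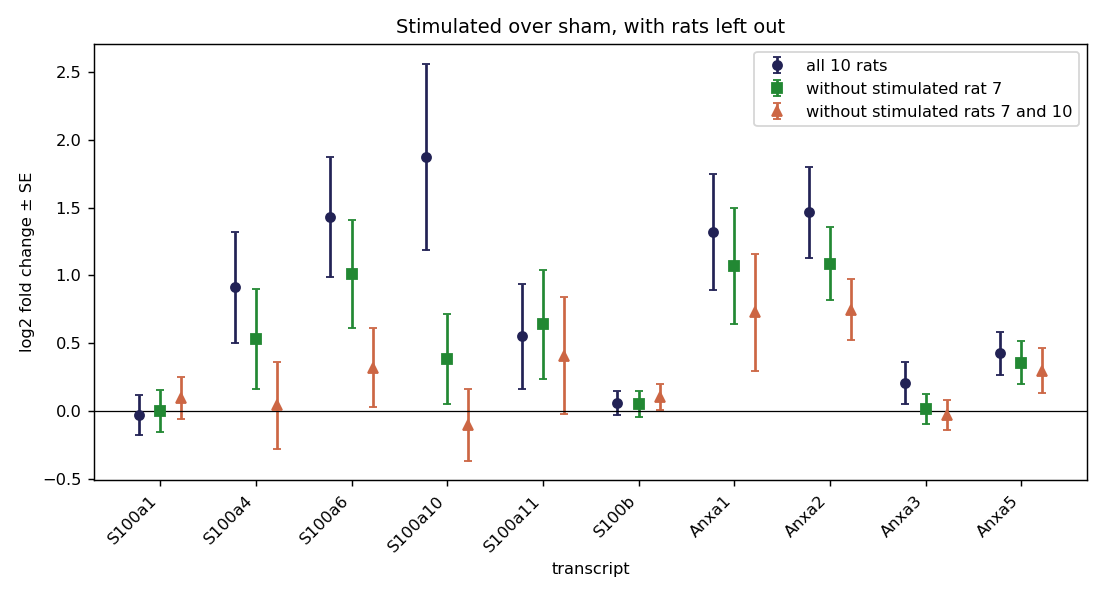
Log2 fold change of stimulated over sham rats with its SE (vertical axis) for each gene, with all 10 rats, without stimulated rat 7 and without stimulated rats 7 and 10. S100a10 moves from 1.87 to -0.10, S100a6 from 1.43 to 0.32, Anxa2 from 1.46 to 0.75 and Anxa5 from 0.43 to 0.30.

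As a description of likeness, the log2 CPM of each gene was set beside that of S100a6 over the 10 rats. Pearson's r (and Spearman's rho) was 0.94 (0.78) for Anxa2, 0.90 (0.71) for S100a4, 0.82 (0.42) for S100a10, 0.82 (0.77) for Anxa3, 0.79 (0.71) for Anxa1 and 0.73 (0.75) for Anxa5. It was 0.35 (0.21) for S100a11, 0.04 (0.25) for S100b and -0.50 (-0.44) for S100a1. Rats 7 and 10 were the farthest from the median of S100a6, and over the other 8 rats Pearson's r was 0.73 for Anxa2, 0.72 for Anxa3, 0.64 for Anxa5, 0.62 for S100b, 0.60 for S100a4 and 0.48 for Anxa1. The likeness of S100a10 to S100a6 rested on rats 7 and 10, since its r over the other 8 rats was -0.0032. No p-value is given for these values, because rats 7 and 10 stand apart for S100a6 and the genes were chosen with results known.

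Outside the 10 genes, the 6 whose profiles were most like that of S100a6, of 9197 genes with a symbol and a mean of at least 5 CPM, were Dusp9 (r = 0.98), Cotl1 (0.98), Mvp (0.97), Mfap4 (0.97), Kcnk13 (0.97) and Dgka (0.97). Each was highest in rats 7 and 10. Cotl1, which binds actin filaments, had 121.9 to 138 CPM in sham rats and 117, 295, 145, 146 and 246 CPM in stimulated rats 6 to 10. Mfap4, a protein of elastic microfibrils, had 3.32 to 4.74 CPM in sham rats and 3.53, 13.8, 5.36, 5.20 and 12.8 CPM in stimulated rats. These were the highest of many correlations over the same libraries.

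The rest of both families was read from lists of other S100 and annexin genes. Over all tested rows 52.2% had a log2 fold change above 0. An unadjusted p-value under 0.05 came with a higher level in 6.7% of rows and with a lower level in 3.16%. Counts for each list below are to be read beside these shares. Of 10 other S100 genes 9 had a row and 3 were tested, with 1 higher at an unadjusted p-value under 0.05, 0 lower and a median log2 fold change of -0.02. That gene was S100a3, which overlaps S100a2 in GRCr8 so that reads of these neighbours may not be separated. It had 2.06 to 4.61 CPM in sham rats and 2.35, 21.96, 2.81, 6.78 and 9.70 CPM in stimulated rats, and its log2 fold change was 1.35 (SE 0.503, edgeR adjusted p = 0.421). Rats 7, 9 and 10 were again the ones above the sham range. The log2 fold change was -0.06 (SE 0.152) for S100a13 and -0.02 (SE 0.104) for S100a16. S100a5, S100a7a and S100z had a count of 0 in every rat. S100a8 and S100a9, which neutrophils carry in abundance, were counted at no more than 0.233 and 0.84 CPM in any rat, and both had their highest value in a sham rat.

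Of 8 other annexins 7 had a row and 5 were tested, with 4 higher and 1 lower in stimulated rats, 2 of the higher ones at an unadjusted p-value under 0.05, and a median log2 fold change of 0.38. Anxa6, an annexin of many membranes, had 175.5 to 305 CPM in sham rats and 349, 254, 216, 299.6 and 349 CPM in stimulated rats, and its log2 fold change was 0.39 (SE 0.157, edgeR adjusted p = 0.447). Unlike S100a6 it was high in rat 6. Anxa11, which tethers RNA granules to lysosomes, had 208 to 233 CPM in sham rats and 203, 383, 226, 303 and 318 CPM in stimulated rats, and its log2 fold change was 0.38 (SE 0.142, edgeR adjusted p = 0.421). Anxa10 had a count of 0 throughout.

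Of 14 partners and receptors of these proteins 12 had a row and 10 were tested, 7 of them higher and 3 lower, with a median log2 fold change of 0.32. At an unadjusted p-value under 0.05, 3 were higher and 0 were lower, against 6.7% and 3.16% of all rows. Plat, the tissue plasminogen activator that annexin A2 and S100a10 hold at the cell surface, had 40.4 to 48.2 CPM in sham rats and 63.0, 167, 55.5, 78.1 and 123 CPM in stimulated rats. No stimulated rat overlapped the sham range, and the log2 fold change was 1.12 (SE 0.248, edgeR adjusted p = 0.376). Its substrate Plg was listed at 0 to 0.575 CPM and was not tested. Pla2g4a, a cytosolic phospholipase A2 that annexins restrain, had 1.22 to 3.70 CPM in sham rats and 3.35, 27.3, 2.30, 16.5 and 7.22 CPM in stimulated rats, and its log2 fold change was 2.07 (SE 0.572, edgeR adjusted p = 0.38). Myh9, the non-muscle myosin that S100a4 binds, had a log2 fold change of 0.33 (SE 0.126, edgeR adjusted p = 0.431). For the S100a6 partners Cacybp and Sugt1 it was 0.01 (SE 0.108) and -0.02 (SE 0.125), and for Ager, the receptor for S100b, it was -0.05 (SE 0.435).

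Calcium-binding EF-hand proteins of neurons were listed for contrast. All 13 were tested, with 3 higher and 10 lower in stimulated rats and a median log2 fold change of -0.19. At an unadjusted p-value under 0.05, Necab1 and Necab3 were higher and Hpcal4, Cabp1 and Necab2 were lower, and 0 passed the adjusted threshold. Necab3 had a log2 fold change of 0.88 (SE 0.276), with 13.4 to 20.6 CPM in sham rats and 18.5, 39.3, 18.3, 29.7 and 58.3 CPM in stimulated rats. Necab2, a binding protein of neurotransmitter receptors, had 134 to 174 CPM in sham rats and 139, 76.4, 151, 111 and 70.4 CPM in stimulated rats, and its log2 fold change was -0.50 (SE 0.185). Rats 7, 9 and 10 were thus outside the sham range for both, above it for Necab3 and below it for Necab2. For Necab1 the log2 fold change was 0.33 (SE 0.137), for Hpcal4 it was -0.26 (SE 0.0938) and for Cabp1 it was -0.33 (SE 0.139). Calb1 and Pvalb, cytosolic calcium buffers, had log2 fold changes of -0.15 and -0.24.

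**Figure D4:**
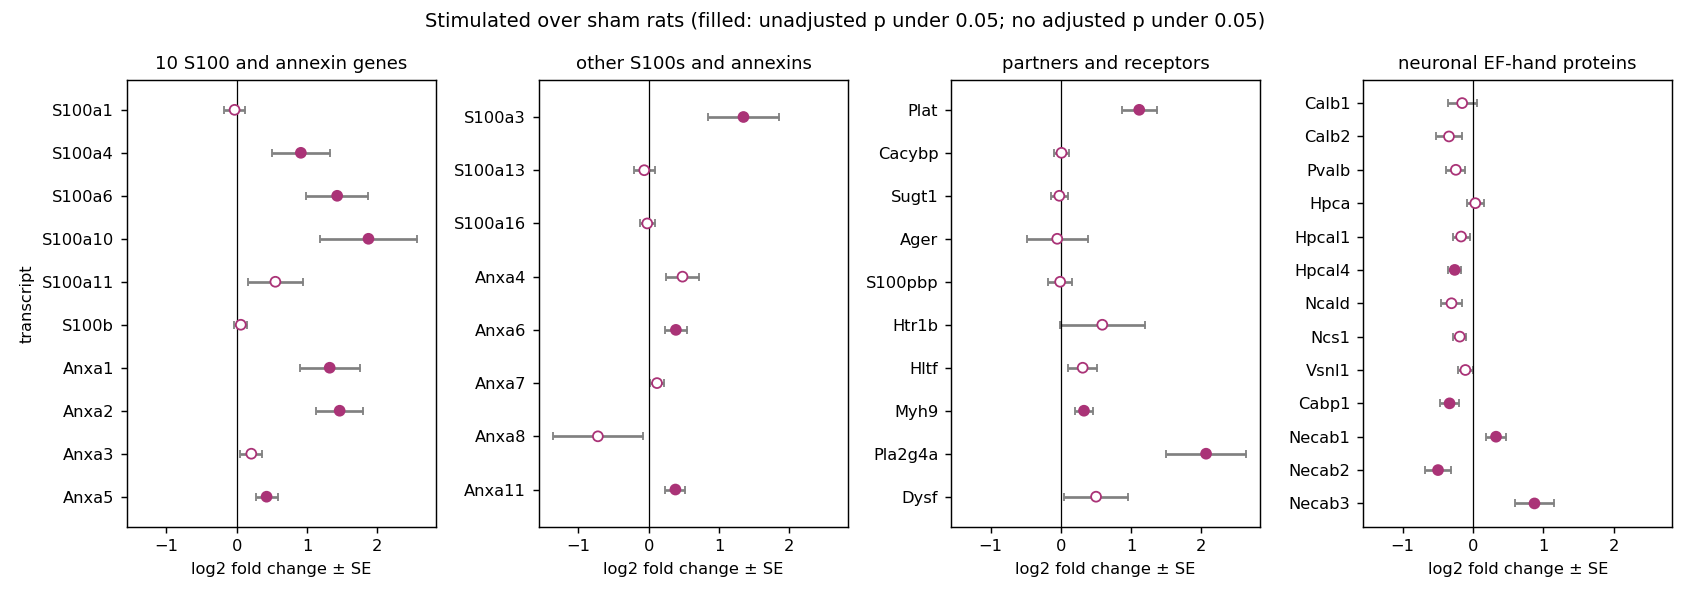
Log2 fold change of stimulated over sham rats with its SE (horizontal axis) for the tested genes of each list, filled where the unadjusted p-value was under 0.05. 6 of the 10 S100 and annexin genes are filled and lie above 0, and 10 of the 13 neuronal EF-hand genes lie below 0.

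Markers of other cells were examined beside these values, since S100 and annexin genes are shared by many cell types. All 9 genes of a list of reactive glia were tested, 8 of them higher at an unadjusted p-value under 0.05 (6.7% of all rows), with a median log2 fold change of 1.28. Its summed level was 1403 to 2010 CPM in sham rats and 1395, 7285, 1474, 2211 and 5622 CPM in stimulated rats 6 to 10, so rats 7 and 10 stood apart here as they did for S100a6. Gfap, the intermediate filament of astrocytes, supplied most of it, with 6469 CPM in rat 7 and 5396 CPM in rat 10 against 1327 to 1927 CPM in sham rats. Vim had 250.4 and 170.4 CPM in these rats against 49.4 to 72.3 CPM. Of 8 resting astrocyte genes with a row 4 were higher at an unadjusted p-value under 0.05, and their sum was 4130 to 4796 CPM in sham rats and 4587 to 4995 CPM in stimulated rats. In 0 genes of any marker list was the adjusted p-value under 0.05.

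Immediate early genes, all 9 of them higher at an unadjusted p-value under 0.05, had a high summed level in rats 7, 9 and 10, at 140.1 to 181 CPM in sham rats and 189.9, 730.2, 129, 1733 and 695 CPM in stimulated rats. Arc supplied 1118 CPM of the sum in rat 9, and Npas4 was inside the sham range in rat 7. Microglial genes (10 of 10 tested, 2 of them higher at that threshold) summed to 369 to 476 CPM in sham and 404 to 648 CPM in stimulated rats, with rat 7 the highest. Genes listed for blood leukocytes (8 of 10 with a row) summed to 2.14 to 4.75 CPM in sham and 2.22 to 7.55 CPM in stimulated rats. Rats 7 and 10, at 3.58 and 2.22 CPM, were inside that sham range. Most of this sum came from Mrc1 in every rat, with 4.05 CPM in sham rat 4 and 6.22 CPM in stimulated rat 9. Mrc1 was at 2.00 CPM in rat 7 and at 1.44 CPM in rat 10. The sum therefore says little about the other genes of this list. The T cell genes Cd3e, Cd3g and Cd3d were listed at 0 in rats 7 and 10, and each was also at 0 in most sham rats. Cd8a, another T cell gene, had 3 and 4 counts in rats 7 and 10, 2 in rat 6 and 0 in the other rats. Counts of these T cell genes were too low for testing.

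Endothelial genes (8 of 9 with a row) summed to 142 to 165 CPM in sham rats and to 169, 168, 182, 169 and 321 CPM in stimulated rats, all of them above the sham range and rat 10 far above it. Of the 8 genes 5 were higher at an unadjusted p-value under 0.05, against 6.7% of all rows. Cldn5 supplied 150 CPM of the sum in rat 10. In rat 7 the genes went opposite ways, with Cldn5, Tek and Emcn below the sham range and Pecam1, Cdh5, Flt1, Kdr and Esam above it. Mural genes (9 of 9, 5 of them higher at that threshold) summed to 87.7 to 111 and 100.3 to 181 CPM, and meningeal and fibroblast genes (9 of 9, 3 of them higher) to 56.7 to 75.3 and 72.8 to 113 CPM, highest in rat 8. Choroid plexus genes (9 of 9) summed to 5.99 to 22.1 CPM in sham and 9.9 to 37.2 CPM in stimulated rats, where rats 7 and 10 had 25.9 and 37.2 CPM. Their marker Ttr was counted in all rats, between 0.744 and 23.1 CPM, with 14.4 and 23.1 CPM in rats 7 and 10. Of 8 tested choroid plexus genes 5 were higher and 3 lower, and only Aqp1 had an unadjusted p-value under 0.05. Aqp1 was at 6.04 and 8.05 CPM in rats 7 and 10 against 0.0763 to 1.32 CPM in sham rats. Kcne2, at 1.39 and 0.774 CPM in these 2 rats, was inside its sham range of 0.687 to 2.10 CPM. Ependymal genes (5 of 7 with a row) summed to 21.0 to 25.5 and 18.0 to 28.4 CPM and were at 19.8 and 18.0 CPM in rats 7 and 10, below the sham range. Oligodendrocyte genes (8 of 8) summed to 2721 to 3916 CPM in sham rats and were lowest in rat 7, at 2203 CPM. Neuronal genes (7 of 7) summed to 3314 to 3665 and 2994 to 3706 CPM, and dentate and CA3 genes (5 of 6 with a row) to 359 to 394 CPM in sham rats and 346, 262.5, 347, 425 and 346 CPM in stimulated rats 6 to 10. Rat 9 was thus above the sham range of the dentate and CA3 sum and the other stimulated rats were below it. Of the 5 tested genes on that list 2 were higher and 3 lower in stimulated rats, with a median log2 fold change of -0.01. Only Neurod1, a transcription factor of granule neurons, had an unadjusted p-value under 0.05. Its level was 24.8 to 30.9 CPM in sham rats and 28.5, 8.31, 23.9, 9.54 and 14.3 CPM in stimulated rats (log2 fold change -0.76, SE 0.282). Log2 fold changes were -0.25 for C1ql2, -0.01 for Nectin3, 0.02 for Grik4 and 0.15 for Prox1. In rat 9 Prox1 and C1ql2 were the highest of all rats, at 52.0 and 207 CPM. The part of these cell types and of glial reaction in the levels of S100 and annexin genes was not tested.

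**Figure D5:**
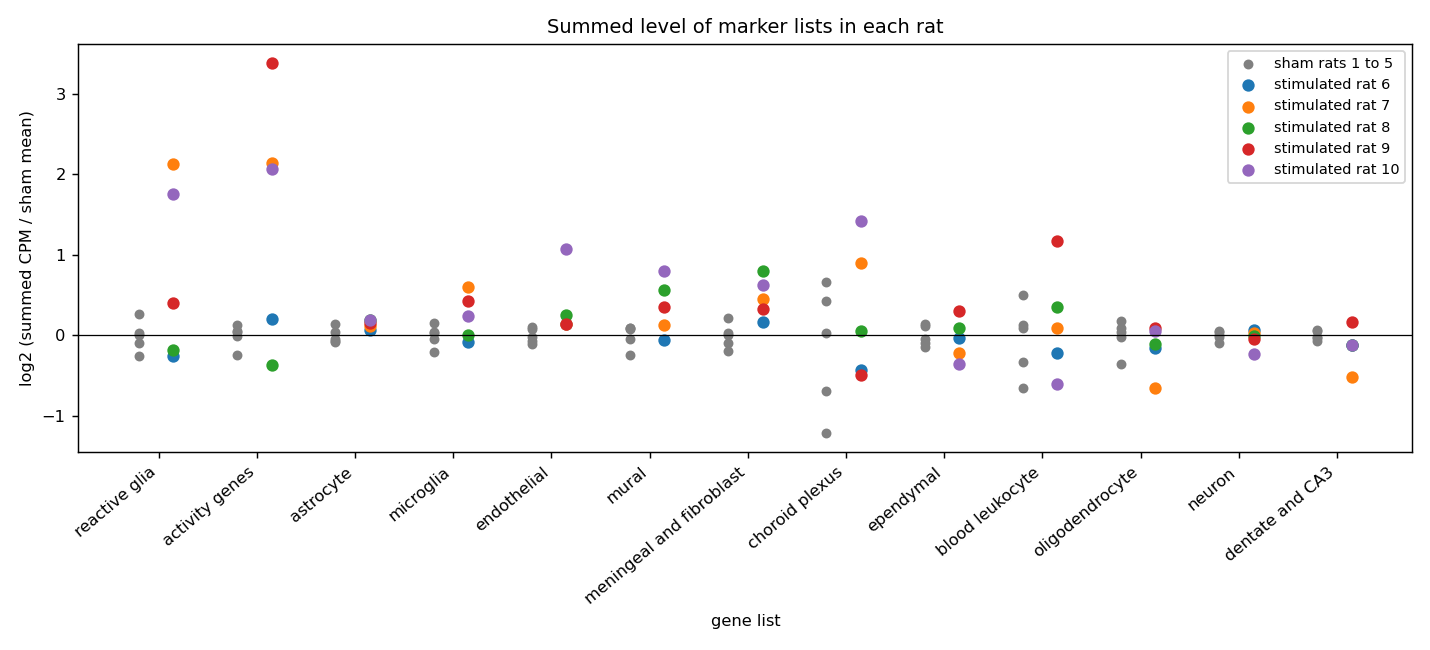
Log2 ratio of the summed CPM of each marker list in each rat to the mean of the 5 sham rats, with sham rats in grey and each stimulated rat in its own colour. Rats 7 and 10 stand apart for reactive glia, rats 7, 9 and 10 for activity genes and rat 10 for endothelial genes, while sums of astrocyte and neuronal genes stay close to the sham mean.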

How the data were processed

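Messenger RNA was measured in 10 rats. The deposited file holds unnormalized read counts for each transcript in each rat. Per the labels and the study's methods, the authors aligned single reads to RN4 with BWA and counted them with their own script. Rows carry RefSeq identifiers although the methods name Ensembl, and the treatment of shared reads and strand was not stated, so genes with close copies are uncertain. Columns were matched to samples by rat number and groups came from the treatment label.

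Unaligned reads were set aside. Rows with a summed count under the 30th percentile (46) of 32041 rows were left out. Stimulated rats were compared with sham rats by edgeR (version 4.0.16, in R version 4.3.3) and its quasi-likelihood test with TMM factors, no covariate and Benjamini-Hochberg adjustment over 22447 rows. SEs were derived from the F statistic. Log2 CPM used a prior count of 2. The fit was tested on simulated data. P-values set the difference between the groups against the spread between animals within them. Symbols came from the GRCr8 RefSeq table. Alternatives used limma 3.58.1 and DESeq2 1.42.0. Python 3.11.15 with numpy 2.4.6, pandas 2.3.3, scipy 1.17.1 and matplotlib 3.10.9 did the rest.

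The 10 genes and all lists were chosen with earlier results of these data known. The rule named all 10 genes, genes of the family, partner and EF-hand lists with an unadjusted p-value under 0.05 or a count of 0, and the 6 genes most like S100a6. Other genes of these lists and single cell type markers were named after their values were seen. Part of the neuronal EF-hand list is not reported here.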

Additional observations from a re-analysis of the deposited data

Results flagged for a closer look

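Within each group of 5 rats, the gap from the extreme rat to its nearest neighbour was divided by the whole range and compared with a limit of 0.71, for 54 groups of values. The limit was passed in 2 groups, where chance gives about 2.7. S100a10 in stimulated rat 7 was at 93.6 CPM with the next rat at 17.5 CPM, a gap of 0.861 of the range. The summed endothelial list in stimulated rat 10 was at 321 CPM with the next rat at 182 CPM, a gap of 0.913 of the range. No explanation was tested.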

How the results depend on the processing

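The count of rows with an adjusted p-value under 0.05, 0 with the quasi-likelihood test, was 119 in the likelihood ratio test and 33 in DESeq2, and 1 of the 10 S100 and annexin genes, Anxa2, was among them in each. It stayed at 0 with RLE factors, library size alone, both other filters, limma-voom, summed rows and whenever 1 rat was left out. In the main fit 6 of the 10 genes and 2214 rows in all had an unadjusted p-value under 0.05. Limma-voom gave 3 genes (Anxa1, Anxa2 and Anxa5) and 2034 rows, and DESeq2 gave 5 genes, without S100a4, and 2329 rows. With 1 rat left out it was 4 to 6 genes and 1657 to 3145 rows, both lowest without stimulated rat 7. Without sham rat 2 the 6 genes held S100a11 (unadjusted p = 0.0277) in place of S100a4 (unadjusted p = 0.101), in the quasi-likelihood test. An alternative added after the data were seen left out rats 7 and 10 together. It gave 1425 rows and 1 of the 10 genes at an unadjusted p-value under 0.05. Log2 fold changes were 0.094 for S100a1, -0.10 for S100a10 and -0.029 for Anxa3, opposite in sign to those with all rats. Each of these was smaller in size than its SE. With 1 rat left out, S100a1 ranged from -0.11 to 0.032, S100b from -0.0049 to 0.10, S100a10 from 0.38 to 2.14, S100a11 from 0.34 to 0.90, S100a4 from 0.53 to 1.12 and Anxa3 from 0.015 to 0.28. Apart from S100a1 and S100b, the genes kept their sign with 1 rat left out. A level of 3 counts, the limit of detection used, was 0.124 to 0.229 CPM. No paired analysis was possible because sham and stimulated rats were different animals and the labels give no matching between them.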

Other observations

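Stimulated rat 7 also stood alone for a pair of stress and acute phase genes from the list of reactive glia. Hspb1, a small heat shock protein, was at 415 CPM in rat 7, with 3.90 to 8.27 CPM in sham rats and 7.65, 9.20, 11.9 and 28.6 CPM in the other stimulated rats. Serpina3n, an inhibitor of proteases secreted by reactive astrocytes, was at 54.5 CPM in rat 7 and at 0 to 0.671 CPM in the other 9 rats. Both were named after their values were seen. Rat 10, the second highest for S100a6, was at 28.6 and 0.671 CPM for these genes.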
